A study of Arabidopsis thaliana with 4 samples.

Results

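AT2G26380, AT1G33590 and AT1G33600 are Arabidopsis thaliana genes for related leucine-rich repeat (LRR) proteins that have no kinase domain. Each was measured by 1 probe set that the platform annotation gives to that gene alone. They are 3 of the 13286 genes of the RefSeq gene table that had such a probe set, and their probe sets are 3 of the 22810 on the array. They were picked by locus, with their signals in the comparison below already known, and those signals chose them. They were fitted with all other probe sets, but since the same values chose them, their values are a description and no p is given for them. AT1G33590 and AT1G33600 are consecutive genes on chromosome 1, and AT2G26380 lies on chromosome 2. The protein sequences were not used here, so neither the relatedness nor the missing kinase domain was checked.

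The study asked how much the release and sorting of root cells changes transcript levels, on 4 Affymetrix ATH1 arrays with 2 per group. In sorted protoplasts, roots of Columbia seedlings 6 days after germination were moved to 140 mM NaCl for 1 hour, their cells were released as protoplasts and passed through a fluorescence-activated cell sorter, and every cell was kept. In whole roots, roots of the same ecotype and age had the same 140 mM NaCl for 1 hour and were harvested intact. Both groups had salt and the 4 arrays include no untreated roots, so the arrays say nothing about a response to salt. The labels do not say that the replicates came from separate plantings, so errors and p-values rest on the differences among these 4 samples and could reflect technical spread alone. In such bulk samples, fewer cells of a type and less RNA per cell cannot be told apart.

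LRR proteins are built from short repeats that stack into a curved surface on which other molecules bind. In plants many of them sit at the cell surface. LRR receptor kinases carry an intracellular kinase that passes a signal on. Receptor-like proteins have a membrane anchor but no kinase. Other LRR proteins without a kinase are secreted, and among these the polygalacturonase-inhibiting proteins (PGIP) bind microbial enzymes that digest pectin in the cell wall. FLOR1 and DRT100 are usually placed with this last type. Protoplasts are made by digesting the walls of plant cells with enzymes.

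AT2G26380 had the largest difference of the 3 genes. Its signal was 819 and 1021 in sorted protoplasts, against 14.3 and 10.9 in whole roots. Signals are intensities on a linear scale, which the authors had scaled to a common level on every array. Both sorted-protoplast arrays were high and both whole-root arrays were low, and the groups did not overlap. The mean was 920 ± 143 in sorted protoplasts and 12.6 ± 2.38 in whole roots (SD, n = 2 each), and the lowest sorted-protoplast signal was 57.4 times the highest whole-root signal. On the scale used for all fits, log2(signal + 16), the difference between sorted protoplasts and whole roots was 5.03 ± 0.34 (SE of limma's fit). The offset of 16 exceeds both whole-root signals, so this log2 difference understates the ratio of the means, which was 73.2. The ratio of means rests on those low signals, and between 19.6% and 22.1% of probe sets on an array lay under 16.

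AT1G33590 was measured well in both groups. Its signal was 682 and 1266 in sorted protoplasts, against 174 and 167 in whole roots. The groups did not overlap, and the sorted-protoplast arrays differed from each other by a factor of 1.86, while the whole-root arrays differed by a factor of 1.04. The mean was 974 ± 413 in sorted protoplasts and 170 ± 5.22 in whole roots (SD, n = 2 each), a ratio of means of 5.72 and a log2 difference of 2.34 ± 0.40 (SE).

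AT1G33600, the next gene along the chromosome, had low signals in whole roots. It had 162 and 224 in sorted protoplasts, against 27.5 and 12.0 in whole roots. Here the groups did not overlap either, but the whole-root arrays stood apart by a factor of 2.29. The mean was 193 ± 44.1 in sorted protoplasts and 19.7 ± 11.0 in whole roots (SD, n = 2 each). The ratio of means was 9.80 and the log2 difference 2.57 ± 0.37 (SE), again understated because the whole-root signals are close to the offset.

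**Figure D1:**
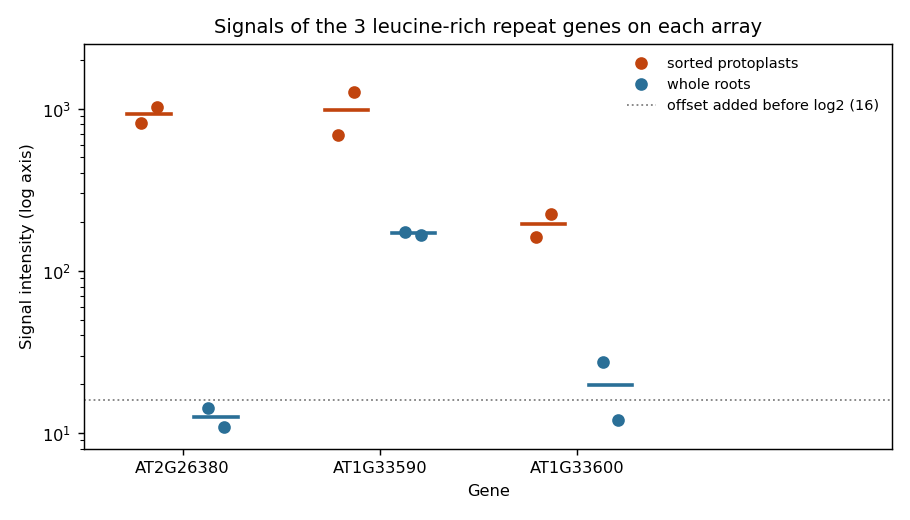
Signal intensity (log axis) of AT2G26380, AT1G33590 and AT1G33600 on each array, with points for single arrays, bars for the mean of 2 arrays, sorted protoplasts on the left and whole roots on the right of each pair, and a dotted line at the offset of 16. For each gene both sorted-protoplast points lie above both whole-root points, and AT2G26380 has both whole-root points below the offset.

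The 3 genes shared a direction and differed in size. AT1G33600 and AT1G33590 had differences of 2.57 and 2.34, which lie within 1 SE of each other, and AT2G26380 lay above both by more than the sum of the standard errors. In each gene sorted-protoplast replicate 2 had a higher signal than sorted-protoplast replicate 1, by factors of 1.25 for AT2G26380, 1.86 for AT1G33590 and 1.38 for AT1G33600. Past limma's threshold, an adjusted p under 0.05 over all probe sets tested, were 3 of 3 genes as higher, beside 6.38% of all probe sets tested as higher and 10.5% in either direction, and nothing is read from that count because the same values chose the genes. AT2G26380 and AT1G33600 had whole-root signals below the filter on low values, which lay at a signal of about 51.3, and passed it through their sorted-protoplast arrays.

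Genes usually grouped with PGIP and FLOR1 gave smaller differences than the LRR genes described above. Nothing is read from that contrast, because the genes above were chosen on these same values. The list is therefore set beside all probe sets tested. Of the 10 PGIP and FLOR1-type genes listed, 6 had a probe set of their own and 5 were tested, of which 0 were higher and 0 lower in limma's test, where 6.38% and 4.11% of all probe sets tested were, and 2 had an unadjusted p under 0.05. Their median log2 difference was 0.85, beside -0.16 over all probe sets tested, and 4 of the 5 differences were positive. AT1G33612, which lies a few genes beyond AT1G33600 on chromosome 1, had a signal of 43.7 and 172 in sorted protoplasts, against 22.2 and 41.7 in whole roots. The sorted-protoplast arrays disagreed, and the lower of them was 1.05 times the higher whole-root array. Its difference was 1.17 ± 0.51 (SE, limma adjusted p = 0.180). AT5G23400 had 134 and 82.9 in sorted protoplasts, against 33.5 and 47.0 in whole roots, without overlap, and a difference of 1.13 ± 0.36 (limma adjusted p = 0.0774). These genes passed in some settings only. Without sorted-protoplast replicate 1 AT1G33612 was higher (2.00, adjusted p = 0.00379), and without sorted-protoplast replicate 2 AT5G23400 was (1.43, adjusted p = 0.0254).

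The brighter genes of that list did not pass either. AT5G12940 had a signal of 690 and 1171 in sorted protoplasts, against 503 and 480 in whole roots, a difference of 0.85 ± 0.38 (limma adjusted p = 0.193). AT3G20820 had 331 and 171 in sorted protoplasts, against 220 and 141 in whole roots, with overlapping groups and a difference of 0.41 ± 0.42. DRT100, first described through its part in tolerance to DNA damage, went the other way, with 723 and 774 in sorted protoplasts, against 1028 and 1329 in whole roots, and a difference of -0.63 ± 0.35 (limma adjusted p = 0.290). AT1G33670 was not tested, since its signals of 1.99 and 3.76 in sorted protoplasts and 3.09 and 2.33 in whole roots were all near 0. The genes of PGIP1, PGIP2 and FLOR1 and AT1G33610 had no probe set of their own in the annotation used, which leaves many probe sets unlisted.

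Few other LRR proteins without a kinase domain were tested. Of the 7 LRR-extensins, wall proteins that join an LRR part to an extensin part, 4 had a probe set and 1 was tested, AT3G24480, with a difference of -0.38 ± 0.35 (limma adjusted p = 0.535). The 55 receptor-like proteins and the 9 intracellular Ras-group-related LRR proteins listed had 0 probe sets of their own in the annotation used. That annotation does not list 8730 probe sets, so the array may still measure these genes. A list of 17 further LRR proteins without a kinase domain was written after the first results had been seen. Of these 15 had a probe set and 5 were tested, of which 2 were higher and 0 lower, where 6.38% and 4.11% of all probe sets tested were. Their median difference was 0.36, beside -0.16 over all probe sets tested. AT2G34930 had 727 and 2829 in sorted protoplasts, against 91.8 and 84.6 in whole roots. Its groups did not overlap and its sorted-protoplast arrays lay far apart. The difference was 3.80 ± 0.56 (SE, limma adjusted p = 0.00321), and it was not past the threshold without whole-root replicate 1 (adjusted p = 0.0784) or without whole-root replicate 2 (adjusted p = 0.0764). AT5G21090 rose by 1.36 ± 0.35 (limma adjusted p = 0.0389), a call that was lost when any of the 4 arrays was left out (adjusted p from 0.0654 to 0.275).

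**Figure D2:**
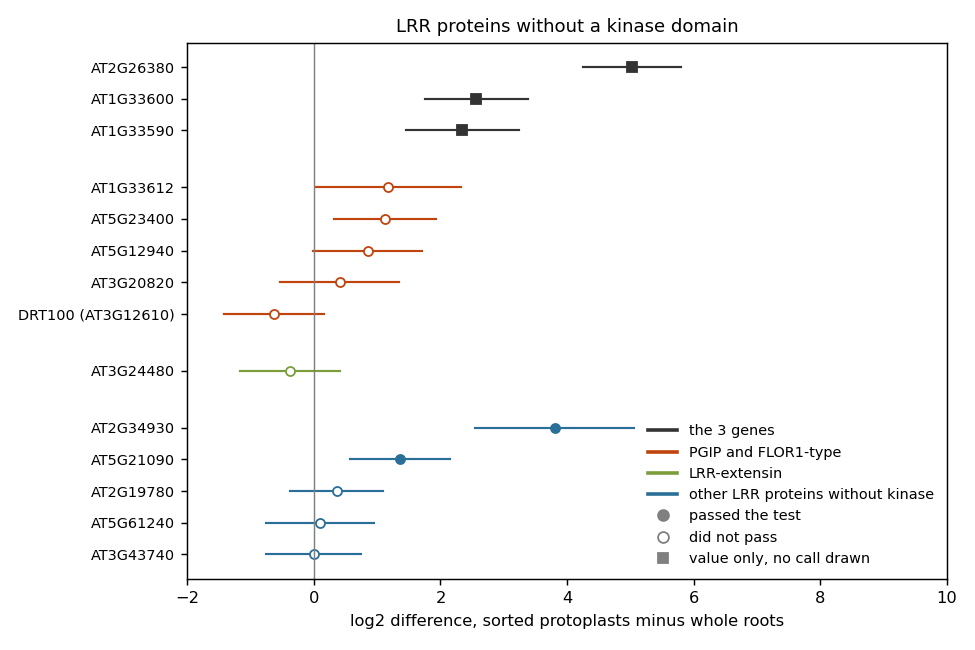
Log2 difference, sorted protoplasts minus whole roots, with its 95% interval, for the 3 genes (squares, chosen on these values and drawn without a call) and for each tested gene of 3 lists of LRR proteins without a kinase domain, where filled circles passed limma's test and open circles did not. AT2G26380 is the highest at 5.03, AT2G34930 follows at 3.80, and the genes of the PGIP and FLOR1-type list lie between -0.63 and 1.17.

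Few of the listed LRR receptor kinases, which hold the kinase that these proteins lack, were tested, so they do not speak for the family. Of 45 listed, 6 had a probe set of their own and 4 were tested, of which 0 were higher and 0 lower in limma's test, where 6.38% and 4.11% of all probe sets tested were, and 1 had an unadjusted p under 0.05. Their median difference was -0.50, beside -0.16 over all probe sets tested. The gene with an unadjusted p under 0.05 was PSY1R, which was lower (-0.86 ± 0.33, limma adjusted p = 0.134). AT4G08850, the brightest of them, was the only 1 of the 4 with a positive difference. It had 587 and 1739 in sorted protoplasts, against 430 and 539 in whole roots, and a difference of 1.05 ± 0.50 (limma adjusted p = 0.216). Without sorted-protoplast replicate 1 it was 1.82 and passed (adjusted p = 0.0161). GSO1, a receptor needed for the endodermal barrier, had 220 and 480 in sorted protoplasts, against 358 and 549 in whole roots, with overlapping groups and a difference of -0.43 ± 0.44.

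The list for early pattern-triggered immunity, the response to microbial molecules that surface receptors set off, held 20 genes. Of these, 3 had a probe set of their own in the annotation used. All 3 were tested and rose, where 6.38% of all probe sets tested were called higher. The list was chosen with earlier results of these data known, so this count is only a description. So few genes also do not speak for the whole immune response. WRKY22, a transcription factor of this response, had 950 and 2177 in sorted protoplasts, against 74.0 and 64.03 in whole roots. BIK1, a cytoplasmic kinase that works directly below surface receptors, had 388 and 840 in sorted protoplasts, against 78.9 and 132 in whole roots. For both the groups did not overlap, and sorted-protoplast replicate 2 was the higher. The 3 LRR genes had that order, but so had every other gene called higher in the gene lists and among the neighbours. The differences were 4.1 ± 0.44 for WRKY22 (limma adjusted p = 0.000790), 2.31 ± 0.45 for BIK1 (adjusted p = 0.0113) and 1.99 ± 0.36 for WRKY53 (adjusted p = 0.00834). Without whole-root replicate 1 and without whole-root replicate 2, and with scaling on spike-ins, only WRKY22 of these 3 passed. BIK1 also did not pass with no filter on low signals (adjusted p = 0.0631).

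The plant's own pectin-modifying enzymes act on the same wall polymer as the microbial enzymes that PGIP proteins bind. The list holds the plant's own polygalacturonases, the same enzyme class as those microbial targets, and also pectate lyases and pectin methylesterases, which are other classes. Whether PGIP proteins bind any of the listed enzymes was not tested. Of 23 listed with their inhibitors, 12 had a probe set and 7 were tested, of which 1 rose and 0 fell, where 6.38% and 4.11% of all probe sets tested were called higher and lower. The median difference was -0.64, beside -0.16 over all probe sets tested. AT1G70500 had 673 and 1007 in sorted protoplasts, against 36.4 and 55.4 in whole roots. The lowest sorted-protoplast signal was 12.2 times the highest whole-root signal, and the difference was 3.78 ± 0.38 (SE, limma adjusted p = 0.000566), past the threshold in every alternative setting run. The other 6 tested had differences between -0.87 and -0.19, all negative and none past the threshold. They include AT5G48900, the brightest of the list, with 2650 and 2331 in sorted protoplasts, against 4307 and 3476 in whole roots (-0.64 ± 0.34, limma adjusted p = 0.274).

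**Figure D3:**
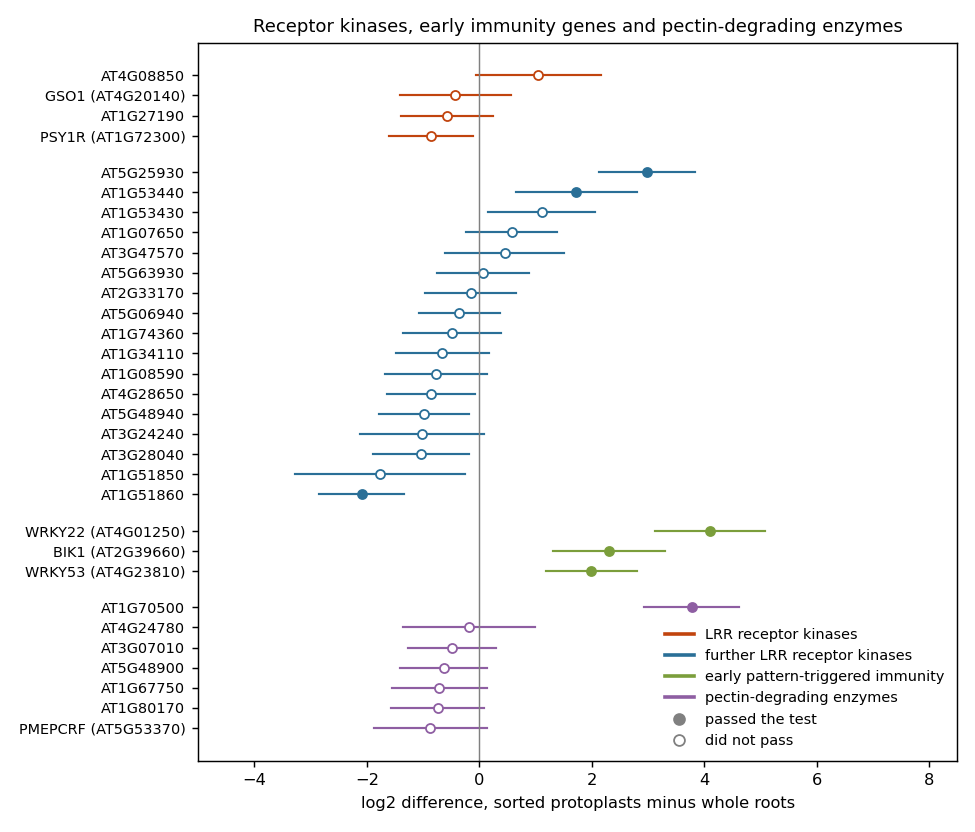
Log2 difference, sorted protoplasts minus whole roots, with its 95% interval, for each tested gene of the receptor kinase, early immunity and pectin lists, where filled circles passed limma's test and open circles did not. The 3 early immunity genes lie between 1.99 and 4.1, and AT1G70500 at 3.78 stands apart from the other pectin enzymes.

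Along the chromosomes the differences were not uniform. Of the 20 genes within 5 places of any of the 3 genes in the RefSeq gene order, 6 had a probe set of their own and 4 were tested, of which 1 was higher and 0 lower, where 6.38% and 4.11% of all probe sets tested were. The gene that rose was AT2G26390, directly after AT2G26380. It had 600 and 674 in sorted protoplasts, against 76.4 and 63.2 in whole roots, without overlap, and a difference of 2.93 ± 0.34 (SE, limma adjusted p = 0.00110). It was past the threshold in every alternative setting run, with differences between 2.39 and 3.18. On the other side of AT2G26380, AT2G26360 had 58.1 and 70.3 in sorted protoplasts, against 146 and 116 in whole roots (-0.87 ± 0.34, limma adjusted p = 0.136), and AT2G26340 had a difference of -0.39 ± 0.35. On chromosome 1 the pseudogene AT1G33580, just before AT1G33590, was under the filter, with 20.4 and 36.1 in sorted protoplasts, against 18.3 and 15.1 in whole roots. The tested gene on the far side of AT1G33600 was AT1G33612, given above. AT2G26390 is in none of the LRR lists used here, while AT1G33612 is in the PGIP and FLOR1-type list. Probe sets of neighbouring genes of 1 family may take up each other's transcripts, and the probe sequences were not used here to check that.

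**Figure D4:**
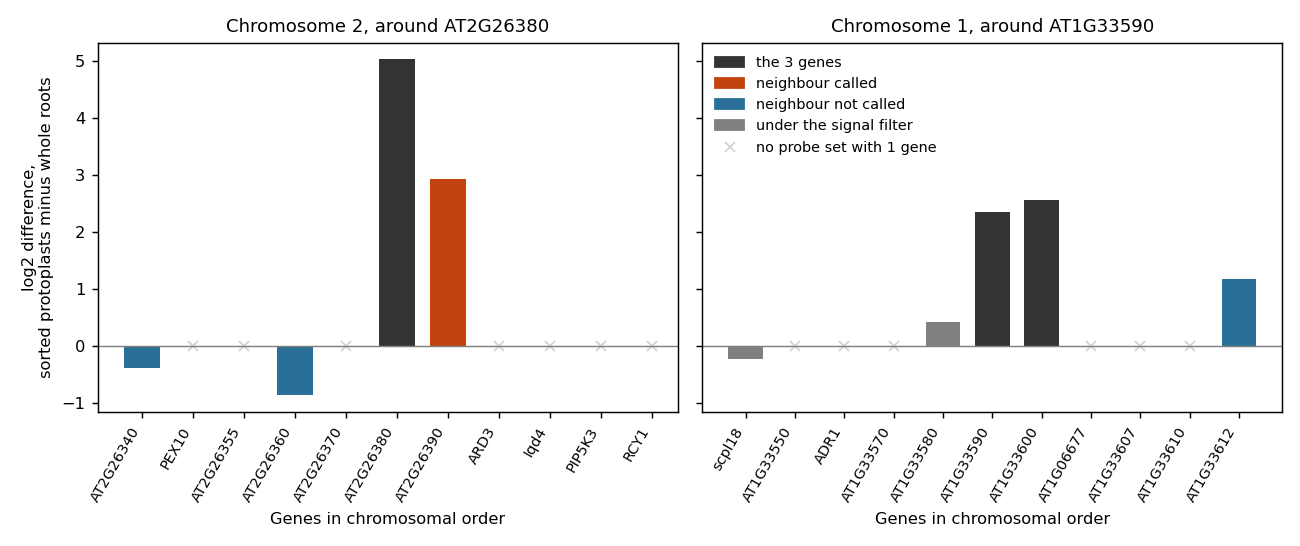
Log2 difference, sorted protoplasts minus whole roots, of the genes around AT2G26380 (left) and AT1G33590 (right), in chromosomal order and not to scale, with crosses for genes that had no probe set with 1 gene. AT2G26390 at 2.93 is the only neighbour past limma's threshold, and AT1G33590 and AT1G33600 stand side by side at 2.34 and 2.57.

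Genes with a symbol whose profile over the 4 arrays was most like that of each LRR gene were found by the root mean square difference between centred log2 signals, over 1039 probe sets. With 4 arrays in 2 groups this measure mainly finds differences of like size, and the selection is a description. For AT1G33590 they were ycf4, a plastid gene for photosystem I assembly, at 0.10 on the log2 scale, PPDK, pyruvate orthophosphate dikinase, at 0.11, and SAG101, a partner in immune signalling, at 0.16. For AT1G33600 they were the plastid gene ccsA at 0.15, ARL, a regulator of organ growth, at 0.16, and MAP1B, a methionine aminopeptidase, at 0.21. SAG101 had 104 and 279 in sorted protoplasts, against 18.3 and 19.4 in whole roots, with sorted-protoplast replicate 2 the higher as for AT1G33590. AT2G26380 had no profile as close, and the nearest were the plastid genes psaI (0.40), rpl14 (0.46) and accD (0.47), whose sorted-protoplast arrays lay farther apart than its own.

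**Figure D5:**
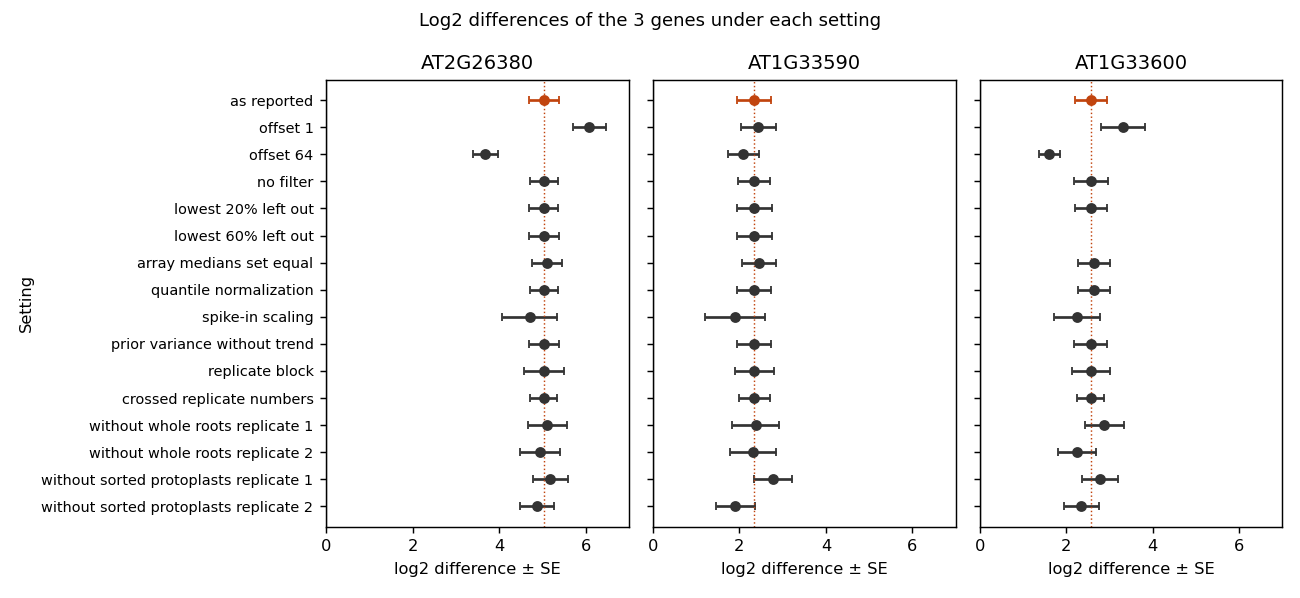
Log2 difference ± SE (x axis) of AT2G26380, AT1G33590 and AT1G33600 under the reported setting and up to 15 alternatives (y axis), with a dotted line at the reported value. Every value is above 0, and the offset moves AT2G26380 between 3.68 and 6.09 and AT1G33600 between 1.62 and 3.32, while AT1G33590 stays between 1.91 and 2.78 over all of them.

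Arrays of 1 group were closer to each other than to those of the other group. The log2 signals of the tested probe sets correlated with a Pearson's r of 0.910 for the pair of sorted-protoplast arrays, 0.938 for the pair of whole-root arrays and 0.768 to 0.790 for pairs from different groups. These are correlations across genes, which are not independent replicates. Of the 20 root cell type markers listed, 7 had a probe set and none of these was at 0, with a summed signal of 3034 and 2350 in sorted protoplasts, against 2032 and 2555 in whole roots. These sums rest largely on a few genes that moved in opposite directions. AT4G04460 alone had 2103 and 1573 in sorted protoplasts. In whole roots EXPA7 had 607 and 1001, and EXPA18 had 741 and 812. The sums thus do not show a like mix of cell types. Of 6 tested, 2 were higher, IRX15 of xylem (1.46 ± 0.37) and AT4G04460 of the root cap (2.27 ± 0.36), and 2 were lower, the root hair expansin genes EXPA7 (-1.95 ± 0.39) and EXPA18 (-2.39 ± 0.35). The cortex marker was under the filter, and endodermis, phloem and quiescent centre markers had no probe set of their own in the annotation used. Some markers of epidermis, stele, xylem and root cap lacked one there too. The array may still measure these genes through probe sets that the annotation does not list. The 2 shoot markers measured summed to 279 and 142 in sorted protoplasts, against 320 and 437 in whole roots. The part of these cell type markers in the values of the 3 LRR genes was not tested.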

How the data were processed

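Per the labels' protocols, ATH1 arrays received biotin-labelled RNA after 2 rounds of amplification, from 2 sorted-protoplast and 2 whole-root samples. For every probe set the authors deposited a linear signal intensity on each array. These came from MAS5, per the submitters' processing notes, with no version named there. The trimmed mean (2% left out at each end) was 250.02 or 250.03 on every array. With 2 arrays in each group, their number limits the precision. The GAPDH control probe sets gave a 3' over 5' signal ratio of 3.45 and 9.96 in sorted-protoplast replicates 1 and 2. In whole-root replicates 1 and 2 it was 15.0 and 4.56. The arrays of each group thus differed in their lean to the 3' end, and the part of this in the values was not tested. Groups came from the sample titles.

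Of 22746 probe sets other than controls, 13513 had 1 gene in the platform annotation, and 13436 of these matched the TAIR10.1 RefSeq gene table. A further 503 had several genes, and 8730 were not listed in that annotation. A gene without a probe set of its own here may thus still be measured by an unlisted probe set. The array design names no build, so no coordinates are given. Signals were transformed as log2(signal + 16). Controls and the 40% with the lowest mean were left out, and the remaining 13647 were fitted with limma 3.58.1 in R 4.3.3 (eBayes with a trended prior) and Benjamini-Hochberg adjustment at 0.05. The fit was also run on simulated data with independent normal noise of the fitted variances. Such data cannot show how the fit does where arrays differ in quality.

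The 3 genes and the 7 lists (169 genes) were chosen with earlier results of these data known, and 2 more lists (56 genes) were added later. Where several probe sets matched a gene, the brightest tested stood for it. Genes named are the 3 genes, measured PGIP and FLOR1-type genes, and for each list and the neighbours the largest rise and fall past the threshold, or the 2 largest if those past it shared a direction, or the 2 brightest if none was past it. The list memberships come from background knowledge. The 3 most similar profiles with a symbol were named for each of the 3 genes. WRKY53, PSY1R, AT5G48900, AT5G21090, AT1G53440, AT2G26360, AT2G26340, the pseudogene AT1G33580 and the cell type markers are named in addition, with their values known. The alternatives changed the offset, the filter, the scaling, the threshold and the prior variance, added a replicate block, or left out each array. Protein relatives by alignment and promoter motifs were planned and not analysed here.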

Additional observations from a re-analysis of the deposited data

How the results depend on the processing

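The differences of the 3 genes kept their direction under every alternative that could be run. Of 350 comparisons with an alternative, 299 were labelled close to the reported value, but that count does not measure robustness. A change of filter, prior or replicate block cannot move a log2 difference, and lists with few tested genes often stayed at 0 calls. Counts of calls that differed by a moderate factor were also labelled close. The cause was not tested for values that moved, except where a setting is stricter by construction. The log2 difference of AT2G26380, 5.03 as reported, was 6.09 with an offset of 1, 3.68 with an offset of 64 and 4.70 with spike-in scaling, and that of AT1G33600, 2.57, was 3.32 and 1.62 with those offsets. AT1G33600 was not among the probe sets tested when the lowest 60% were left out. With 1 array left out, where the lone array of a group is assumed to vary like the other group, the difference ranged from 4.87 to 5.18 for AT2G26380, from 1.91 to 2.78 for AT1G33590 and from 2.25 to 2.89 for AT1G33600. With spike-in scaling 2 of the 3 genes were past the threshold and AT1G33590 was not, beside 425 of 13647 probe sets called higher. AT1G33590 was also not past it when either whole-root array was left out, and AT1G33600 was not without whole-root replicate 2. Nothing is read from these calls, since the same values chose the genes. Over all probe sets, 870 were called higher and 561 lower. With no filter these counts were 394 and 137, and at an adjusted p under 0.01, which is stricter by construction, 393 and 107. Spike-in scaling gave 425 and 681 and moved the median difference from -0.16 to -0.57, and the share of higher calls with it. With 1 array left out they ranged from 167 to 989 and from 25 to 649. Of the lists, the early immunity genes had 3 higher, or 2 with no filter and at an adjusted p under 0.01, where BIK1 did not pass, 1 with spike-in scaling and 1 to 3 with 1 array left out. The PGIP and FLOR1-type genes had 0 higher, or 1 with crossed replicate numbers and 0 to 1 with 1 array left out. The LRR receptor kinases had 0 higher, or 0 to 1. The other LRR proteins without a kinase domain had 2 higher, or 1 with no filter, with spike-in scaling and at an adjusted p under 0.01, and 0 to 1 with 1 array left out. The further receptor kinases had 2 higher and 1 lower. The higher count was 1 with an offset of 64, no filter, the lowest 20% or 60% left out, spike-in scaling, a prior without trend and an adjusted p under 0.01, and the lower count was 2 with the lowest 20% left out or spike-in scaling and 0 with the lowest 60% left out. With 1 array left out they ranged from 1 to 3 and from 0 to 3. The neighbours had 1 higher, or 1 to 2 with 1 array left out, and 10 places in place of 5 left that count at 1. AT3G20820 had differences from -0.04 to 0.85 and GSO1 from -0.96 to 0.11, none past the threshold.

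Nothing ties a sorted-protoplast array to the whole-root array of the same replicate number, and their deviations from the group means had a correlation of -0.156 over probe sets. A replicate block on that number gave 1123 higher and 787 lower calls, the PGIP and FLOR1-type genes had 1 higher, the neighbours 2 higher and the further receptor kinases 2 lower. With crossed replicate numbers, an alternative chosen after seeing the data, the calls were 1137 higher and 922 lower.

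The planned list of protein relatives was not run, since protein sequences were not used here. Low signal limits what can be seen in whole roots for AT2G26380 and AT1G33600.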

Other observations

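A second list written after the first results had been seen held 39 further LRR receptor kinases known mostly by locus. Of these 28 had a probe set of their own and 17 were tested, of which 2 rose and 1 fell in limma's test, beside 6.38% higher, 4.11% lower and 10.5% either way over all probe sets tested. Their median log2 difference was -0.49, beside -0.16 over all probe sets tested, and 8 had an unadjusted p under 0.05. AT5G25930 had a signal of 2465 and 3832 in sorted protoplasts, against 335 and 420 in whole roots, and a difference of 2.98 ± 0.38 (SE, limma adjusted p = 0.00156), which was past the threshold in every alternative setting run (2.53 to 3.30). AT1G53440 rose by 1.73 ± 0.48 (limma adjusted p = 0.0490), a call that was lost without whole-root replicate 1 (adjusted p = 0.344), without whole-root replicate 2 (adjusted p = 0.174) and without sorted-protoplast replicate 2 (adjusted p = 0.130). AT1G51860 fell, with 20.0 and 31.1 in sorted protoplasts, against 178 and 142 in whole roots, and a difference of -2.09 ± 0.34 (limma adjusted p = 0.00507). That call was lost without whole-root replicate 1 (adjusted p = 0.0857) and without whole-root replicate 2 (adjusted p = 0.0622). The neighbouring gene AT1G51850, chosen after its values were seen, had 3.96 and 94.5 in sorted protoplasts, against 107 and 193 in whole roots, so its sorted-protoplast arrays disagreed and it was not past the threshold (-1.77 ± 0.67, limma adjusted p = 0.130).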
